A study of Mus musculus with 16 samples.

Results

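The genes described here encode the enzymes that copy DNA and supply its building blocks, measured in lymphatic endothelial cells (LECs) of mouse lymph nodes (LNs). The group was defined by a list of 43 gene names, and a gene was kept if it reached 1 TPM (a transcript abundance corrected for length and scaled to 1 common total in every library) in at least 4 of the 16 libraries. All 43 listed genes were among the 24946 genes of the tables, and all 43 were kept, as were 12684 genes of the whole series. Closest to the limit were Ccne2, which reached 1 TPM in 6 libraries, and Orc1, which reached it in 7; no listed gene fell outside. Live cells sorted as CD45- CD31+ podoplanin+ from popliteal and brachial LNs gave 4 groups of 4 libraries. KO Infl. LECs came from stab1-/- mice, which lack Clever-1 (the scavenger receptor encoded by Stab1), 1 day after ovalbumin (OVA) in Freund's adjuvant was injected into the footpads. WT Infl. LECs came from wild type mice given the same injection. KO and WT LECs came from the same genotypes at steady state, without injection. The adjuvant is given as complete in the sample labels and as incomplete in the study's methods. The labels name the strain C57BL/6, whereas the methods describe KO mice of both sexes on a mixed C57BL/6N and 129SvJ background, aged 6 to 12 weeks, with their WT controls; the deletion is constitutive, so it is present in every cell type of the node. A legend of the study gives 2 mice per library.

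Before a cell divides, the origin recognition complex, CDC6 and CDT1 load the MCM helicase onto DNA. The helicase is switched on by CDC45, the GINS complex and MCM10, and polymerases then extend primers while the PCNA clamp, placed by replication factor C, holds them on the template. Ribonucleotide reductase and thymidylate synthase make the deoxynucleotides that are consumed. Many of these genes are transcribed as cells pass from G1 into S phase under the control of E2F factors, and LECs of a resting node divide rarely while those of a draining node proliferate after immunization.

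The promoters of some of these genes are shown because E2F factors are known regulators of the family and E2f1 is one of its members. RefSeq promoter windows (build GRCm38.p6, 250 bases before to 50 bases after a gene's start) were at hand for 36 of the 43 genes, and were searched on both strands for the E2F-type motifs TTTCCCGC, TTTCGCGC, TTTGCCGC and TTTGGCGC, which can overlap each other on opposite strands. At least 1 match was found in 14 of 36 members (38.9%), in 464 of 9839 tested genes with a window (4.72%) and in 704 of all 27025 genes with a window (2.60%). Matches were found in Mcm3, Mcm5, Mcm6, Mcm7, Orc1, Cdc6, Cdt1, Gins3, Pola1, Pold1, Pole2, Rfc3, Lig1 and Uhrf1. A match is a run of letters and not a measured binding site, and some windows, such as that of Pola1, reach into the annotated span of the gene itself. The stretches of these windows that lie before the annotated span of Mcm5 (chr8:75109259-75109467, plus strand), Mcm6 (chr1:128359706-128359955, minus strand) and Rrm2 (chr12:24708004-24708240, plus strand) are printed in the direction of transcription with matches in capitals. Mcm5 and Mcm6 carry overlapping matches on opposite strands, and Rrm2, whose log2 fold change of TPM + 1 after OVA was the largest of the members, has none in the printed stretch.
Mcm5: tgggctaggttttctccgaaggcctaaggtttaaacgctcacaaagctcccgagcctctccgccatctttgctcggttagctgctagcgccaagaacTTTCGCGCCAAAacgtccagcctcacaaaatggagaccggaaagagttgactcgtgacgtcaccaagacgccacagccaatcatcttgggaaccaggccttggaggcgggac
Mcm6: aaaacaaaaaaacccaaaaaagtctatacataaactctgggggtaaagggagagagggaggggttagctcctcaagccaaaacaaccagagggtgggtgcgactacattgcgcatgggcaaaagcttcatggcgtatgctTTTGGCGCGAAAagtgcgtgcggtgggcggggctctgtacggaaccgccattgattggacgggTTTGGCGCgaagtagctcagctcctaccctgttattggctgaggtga
Rrm2: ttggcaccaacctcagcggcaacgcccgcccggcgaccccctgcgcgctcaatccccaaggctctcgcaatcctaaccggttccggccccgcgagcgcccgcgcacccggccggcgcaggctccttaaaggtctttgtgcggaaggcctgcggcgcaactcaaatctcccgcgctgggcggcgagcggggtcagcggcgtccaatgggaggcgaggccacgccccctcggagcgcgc

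Stab1 (chr14:31139017-31168651, GRCm38) had 6.43, 5.85, 8.90 and 8.62 TPM in KO Infl. LECs, against 271, 193, 639.5 and 374 TPM in WT Infl. LECs, and 5.09 to 6.66 TPM in KO LECs, against 235 to 248 TPM in WT LECs, as the genotype labels require. The lymphatic and endothelial markers were present in all 16 libraries, Prox1 at 16.8 to 104, Flt4 at 152 to 562, Pdpn at 65.8 to 161 and Pecam1 at 308 to 1202 TPM. The number of genes at 1 TPM or more was 11898 to 12133 in 15 libraries and 10903 in WT Infl. replicate 2, which stood apart. Long transcripts were low in that library: over the 20 members whose longest coding transcript has at least 3000 bases, its log2(TPM + 1) differed from the mean of the other 3 WT Infl. libraries by a median of -1.36, and over the 13 members under 2000 bases by -0.35. The same medians over all genes with a length were -1.20 and 0.14. Sequencing depth is not kept in TPM values and is unknown here, so results that turn on this library are also given without it.

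**Figure D1:**
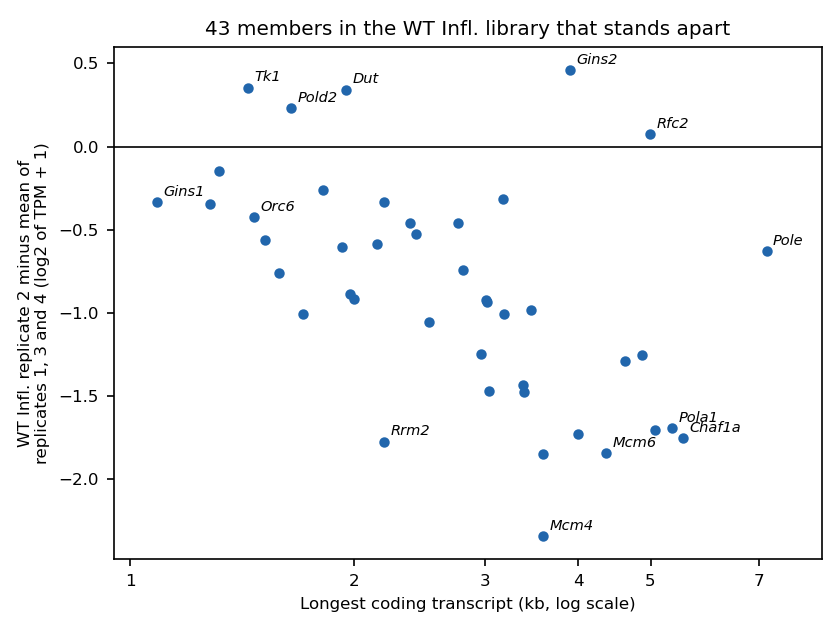
Each point is 1 of the 43 members; the x axis is the length of its longest coding transcript in kb (log scale) and the y axis the log2(TPM + 1) of WT Infl. replicate 2 minus the mean of the other 3 WT Infl. libraries. Mcm4 lies lowest at -2.34, while Tk1, Pold2, Dut, Gins2 and Rfc2 lie above 0.

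The first question was how the replication genes of LECs responded to OVA in each genotype. In KO Infl. LECs 27 of 42 tested members (64.3%) were higher than in KO LECs and none lower, where a call required the adjusted p to be 0.05 or less and the log2 fold change to reach 1 or -1. Log2 fold changes are of TPM + 1 and are given ± standard error, and p-values are limma's, adjusted over all tested genes. Of all 12161 genes tested, 6.41% were called higher and 3.06% lower. In WT Infl. LECs 12 of 41 tested members (29.3%) were higher than in WT LECs and none lower, beside 1.99% higher and 1.97% lower of 12031 genes. Without WT Infl. replicate 2, 26 of 41 members (63.4%) were called higher in WT Infl. LECs, beside 5.84% of all genes. Without WT replicate 1, or without WT replicate 4, the WT count was 7. All 12 members called in WT were among the 27 called in KO, and without that library the lists shared 24, which is 88.9% of the KO list and 92.3% of the WT list; these comparisons share no library. Cdt1 and Prim2 were then called in WT alone. Part of such an overlap follows from the size of the lists, and the overlap over all genes was not counted.

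The median log2 fold change of the tested members was 1.12 in KO Infl. against KO LECs and 0.90 in WT Infl. against WT LECs, whereas the medians of all tested genes were 0.24 and -0.03. Without WT Infl. replicate 2 the WT medians were 1.13 for the members and 0.17 for all genes. Because the median of all genes lay above 0 in the KO comparison, the count was repeated after rescaling the libraries by the median ratio, which brought the median of all genes to 0.01: 17 of 42 members (40.5%) were then called higher, beside 3.31% of all genes. At the adjusted p alone, 38 of 42 members passed as higher in KO Infl. LECs (43.9% of all genes) and 14 of 41 in WT Infl. LECs (2.56% of all genes), or 35 of 41 without WT Infl. replicate 2 (28.4% of all genes). Dut, Orc6, Pola2, Pold1, Pold2 and Pole were then the members that did not pass in WT. The groups did not overlap, with every inflamed library above every steady-state library, for 35 of 42 members in KO (39.6% of all genes) and 19 of 41 in WT (5.24% of all genes), or 36 of 41 in WT without replicate 2 (31.3% of all genes). Summed over the members, the level was 1759, 1587, 1569 and 1772 TPM in KO Infl. LECs, against 864, 935, 934 and 860.2 TPM in KO LECs. In WT Infl. LECs the sum was 1754, 1053, 1565 and 1861 TPM, against 895, 936, 920.2 and 875 TPM in WT LECs. No inflamed library had a sum in the range of the steady-state libraries, although WT Infl. replicate 2 was well below the other inflamed ones.

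**Figure D2:**
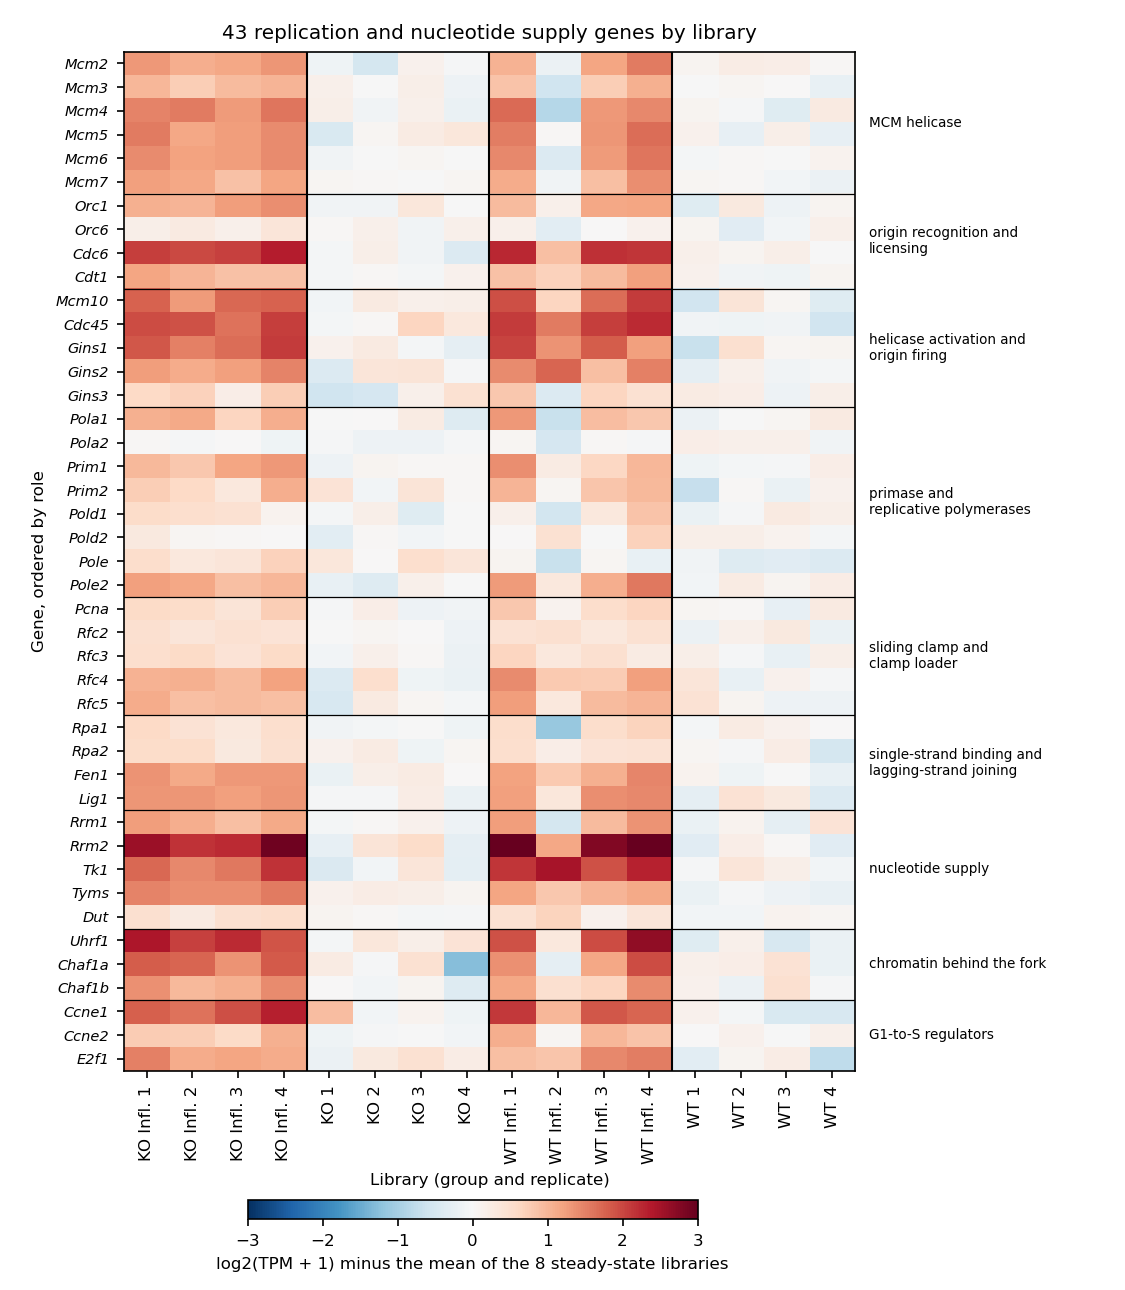
Rows are the 43 members ordered by role, columns the 16 libraries, and color is log2(TPM + 1) minus the gene's mean over the 8 steady-state libraries, so that red is higher. Rrm2, Cdc6, Uhrf1, Cdc45 and Ccne1 are among the deepest rows in KO Infl. LECs, while Orc6, Pola2 and Pold2 stay near 0 and the column of WT Infl. replicate 2 is paler than its neighbors.

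In bulk libraries a larger share of dividing cells and more transcript per cell cannot be told apart, and other cell types can enter a sort. The markers of LECs summed to 5742 to 6752 TPM in KO Infl. LECs, against 2479 to 2861 TPM in KO LECs, with 4 of 9 tested markers called higher, among them Flt4 and Lyve1. In WT Infl. LECs they summed to 2145 to 5833 TPM, against 2482 to 3189.9 TPM in WT LECs, with 0 of 9 called (3 without WT Infl. replicate 2). The 2145 TPM was the sum of WT Infl. replicate 2. Median sums over the libraries were 5342 TPM in WT Infl. and 2890 TPM in WT LECs, beside 6163 TPM in KO Infl. and 2532 TPM in KO LECs. Ccl21a, a lymphatic chemokine gene, was listed at 0 in all libraries. Myeloid and neutrophil markers summed to 85.9 to 147 TPM in KO Infl. LECs, against 312 to 467 TPM in KO LECs (5 of 6 lower), and to 68.5 to 90.0 TPM in WT Infl. LECs, against 319.8 to 926 TPM in WT LECs (2 of 6 lower). T cell markers were lower for 6 of 9 in KO and 1 of 8 in WT, with sums of 148 to 167 TPM in KO Infl., against 191 to 248 TPM in KO LECs, and of 118 to 139.9 TPM in WT Infl., against 172 to 207 TPM in WT LECs. Pan-leukocyte markers were lower for 4 of 7 in KO and 1 of 7 in WT; Ptprc, which encodes CD45, stayed at or under 2.84 TPM in every library. Their sums were 776 to 990.1 TPM in KO Infl., against 731 to 842 TPM in KO LECs, and 822 to 1109.7 TPM in WT Infl., against 745 to 856 TPM in WT LECs. B cell markers were called for 1 higher and 1 lower of 6 in KO and 0 of 5 in WT, with sums of 60.7 to 75.4 TPM in KO Infl., against 117 to 130.0 TPM in KO LECs, and of 41.9 to 61.1 TPM in WT Infl., against 73.6 to 98.1 TPM in WT LECs. Reticular fibroblast markers were higher for 3 of 9 in KO and 1 of 9 in WT (4 without WT Infl. replicate 2), with sums of 652 to 1047 TPM in KO Infl., against 307 to 517 TPM in KO LECs, and of 371 to 1400.1 TPM in WT Infl., against 463 to 606 TPM in WT LECs. Blood endothelial markers were called for 1 higher and 1 lower of 11 in KO and 2 higher of 11 in WT (5 without WT Infl. replicate 2), with sums of 3457 to 5241 TPM in KO Infl., against 5846 to 7119 TPM in KO LECs, and of 3414 to 4941 TPM in WT Infl., against 3487 to 4159.8 TPM in WT LECs. Beside these counts, 3.06% of all genes were called lower in KO and 1.97% in WT. Lower counts in WT without WT Infl. replicate 2 are not given, so the WT counts cannot be set against those in KO. Without it, WT median log2 fold changes were -0.68 for T cell, -0.88 for myeloid and neutrophil, -0.17 for B cell and -1.03 for pan-leukocyte markers. In KO these medians were -1.36, -2.07, -0.80 and -1.16. The part of these marker shifts in the replication genes was not tested.

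The MCM helicase is the motor that unwinds DNA ahead of the fork, and its 6 subunits Mcm2 to Mcm7 work as a ring. Mcm6, the most abundant of the ring after Mcm3, had 136, 116, 120.3 and 135 TPM in KO Infl. LECs, against 46.2, 49.1, 52 and 49.2 TPM in KO LECs (log2 fold change 1.35 ± 0.07, adjusted p = 8.06e-07). Mcm6 had 137, 37.3, 123 and 152 TPM in WT Infl. LECs, against 47.5, 50.9, 49.5 and 54 TPM in WT LECs (log2 fold change 0.96 ± 0.40, adjusted p = 0.246, and 1.42, adjusted p = 6.81e-06 without WT Infl. replicate 2). In KO the inflamed libraries lay far above the steady-state ones with little spread, whereas in WT replicate 2 lay below all steady-state libraries. Mcm4 had 13.3, 14.1, 11.5 and 14.6 TPM in KO Infl. LECs, against 4.84, 3.74, 4.73 and 3.46 TPM in KO LECs (log2 fold change 1.48 ± 0.13, adjusted p = 9.65e-06). Mcm4 had 15.7, 1.82, 11.7 and 12.9 TPM in WT Infl. LECs, against 4.48, 4.04, 2.97 and 5.21 TPM in WT LECs (log2 fold change 0.90 ± 0.52, adjusted p = 0.459, and 1.49, adjusted p = 0.000213 without WT Infl. replicate 2). The low value of 1.82 TPM in WT Infl. replicate 2 was the only one of that group that did not exceed the steady-state range. Mcm2 had 59.8, 51.8, 53.9 and 61 TPM in KO Infl. LECs, against 21.7, 16.1, 26.2 and 23.3 TPM in KO LECs (log2 fold change 1.35 ± 0.13, adjusted p = 1.79e-05). Mcm2 had 50.1, 20.9, 54.9 and 71.5 TPM in WT Infl. LECs, against 25, 27.8, 27.4 and 24.5 TPM in WT LECs (log2 fold change 0.77 ± 0.33, adjusted p = 0.28, and 1.13, adjusted p = 0.000135 without WT Infl. replicate 2). Again only WT Infl. replicate 2 lay below the WT libraries. Mcm3 had 139, 116, 133 and 141 TPM in KO Infl. LECs, against 76.2, 67.9, 77.8 and 61.7 TPM in KO LECs (log2 fold change 0.89 ± 0.09, adjusted p = 2.5e-05). Mcm3 had 124, 45.3, 115 and 145 TPM in WT Infl. LECs, against 67.8, 71.8, 69.1 and 59.2 TPM in WT LECs (log2 fold change 0.55 ± 0.33, adjusted p = 0.48, and 0.92, adjusted p = 0.000128 without WT Infl. replicate 2). Mcm3 passed the adjusted p in KO but stayed short of a log2 fold change of 1. Mcm5 and Mcm7 were called in KO (1.30 and 1.08), so that 5 of 6 subunits were called in KO, 0 of 6 in WT and 5 of 6 in WT without replicate 2. Counts by role, here and below, stand beside 6.41% of all genes higher in KO and 1.99% in WT. Without WT Infl. replicate 2 the WT share was 5.84%.

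The licensing factors differed widely among themselves. Cdc6, which helps load the helicase, had 7.54, 7.0, 7.43 and 9.37 TPM in KO Infl. LECs, against 0.939, 1.27, 0.889 and 0.527 TPM in KO LECs (log2 fold change 2.22 ± 0.15, adjusted p = 2.39e-06). Cdc6 had 8.74, 2.78, 8.20 and 7.90 TPM in WT Infl. LECs, against 1.24, 1.14, 1.27 and 1.01 TPM in WT LECs (log2 fold change 1.78 ± 0.31, adjusted p = 0.012, and 2.10, adjusted p = 8.43e-06 without WT Infl. replicate 2). Cdc6 was near 1 TPM at steady state and higher in each inflamed library, without overlap in either genotype. With KO values of 0.939, 0.889 and 0.527 TPM, Cdc6 passed the minimum in KO only through the KO Infl. libraries. Its KO call is included in the counts but is no independent evidence of a rise. In WT every steady-state library reached 1 TPM. Orc6, a subunit of the origin recognition complex, had 36.2, 38.8, 35.5 and 41.9 TPM in KO Infl. LECs, against 32.6, 35.6, 29.6 and 35.6 TPM in KO LECs (log2 fold change 0.19 ± 0.09, adjusted p = 0.0905). Orc6 had 35.9, 25.3, 32.3 and 35.1 TPM in WT Infl. LECs, against 34.1, 24.9, 30.2 and 35.6 TPM in WT LECs (log2 fold change 0.04 ± 0.19, adjusted p = 0.977, and 0.15, adjusted p = 0.394 without WT Infl. replicate 2). The ranges of Orc6 overlapped in both genotypes and it was not called in either. Its 95% interval in KO was -0.01 to 0.39. Orc1, the ATPase of the same complex, had 1.98 to 2.86 TPM in KO Infl. LECs, against 0.377 to 0.869 TPM in KO LECs (log2 fold change 1.15 ± 0.15, adjusted p = 9.39e-05), and was too low to be tested in WT. Every steady-state library lay under 1 TPM, so Orc1 passed the minimum in KO only through the KO Infl. libraries. Its call is included in the KO counts but is no independent evidence of a rise. Cdt1, the partner of CDC6, passed the adjusted p in both genotypes just below the fold limit (0.98 in KO and 0.94 in WT).

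Among the factors that switch the helicase on, 4 of 5 were called in KO and the same 4 in WT. Their medians were 1.51 and 1.62, beside 0.24 and -0.03 over all genes. Cdc45, a permanent part of the active helicase, had 21.8, 21.2, 17.3 and 23.7 TPM in KO Infl. LECs, against 4.66, 5.04, 8.15 and 6.38 TPM in KO LECs (log2 fold change 1.66 ± 0.16, adjusted p = 1.76e-05). Cdc45 had 24.3, 16.2, 23.8 and 26.7 TPM in WT Infl. LECs, against 4.45, 4.35, 4.51 and 2.94 TPM in WT LECs (log2 fold change 2.22 ± 0.23, adjusted p = 0.00128, and 2.37, adjusted p = 6.71e-06 without WT Infl. replicate 2). Cdc45 was above the steady-state range in every inflamed library of both genotypes, including WT Infl. replicate 2. Gins1, a subunit of the GINS complex that completes the helicase, had 19.7, 15.1, 17.1 and 23.4 TPM in KO Infl. LECs, against 5.16, 5.82, 4.42 and 3.69 TPM in KO LECs (log2 fold change 1.78 ± 0.16, adjusted p = 1.04e-05). Gins1 had 22.1, 13.5, 19 and 12.3 TPM in WT Infl. LECs, against 2.57, 6.91, 4.96 and 5.01 TPM in WT LECs (log2 fold change 1.62 ± 0.30, adjusted p = 0.0156, and 1.70, adjusted p = 0.000945 without WT Infl. replicate 2). The 4 inflamed libraries of each genotype lay above all 4 at steady state. Mcm10, which helps start unwinding, had 7.98, 5.39, 7.78 and 8.05 TPM in KO Infl. LECs, against 1.51, 2.18, 1.92 and 1.97 TPM in KO LECs (log2 fold change 1.51 ± 0.15, adjusted p = 1.73e-05). Mcm10 had 9.03, 3.15, 7.51 and 10.3 TPM in WT Infl. LECs, against 0.771, 2.45, 1.78 and 1.05 TPM in WT LECs (log2 fold change 1.71 ± 0.35, adjusted p = 0.0247, and 2.03, adjusted p = 0.000145 without WT Infl. replicate 2). Here too the groups were separate, with WT Infl. replicate 2 nearest to the WT range. As 0.771 TPM was under the minimum, Mcm10 passed it in WT only with the help of WT Infl. libraries. Its WT call is therefore no independent evidence of a rise. Gins2, a further GINS subunit, had 36.7, 32.9, 36 and 43 TPM in KO Infl. LECs, against 10.7, 19.1, 19.5 and 14.4 TPM in KO LECs (log2 fold change 1.20 ± 0.17, adjusted p = 0.000175). Gins2 had 41.2, 51.4, 28.3 and 43.9 TPM in WT Infl. LECs, against 12.1, 16.5, 13.5 and 14 TPM in WT LECs (log2 fold change 1.47 ± 0.22, adjusted p = 0.00582, and 1.35, adjusted p = 0.0002 without WT Infl. replicate 2). Gins2 was highest in WT Infl. replicate 2. GENCODE exons of Gse1 cover 70.7% of the exon bases of Gins2, the largest such share among the 12 members that overlap another coding gene, and as the library kit does not mark strand, reads of such pairs cannot be told apart there. Gins3 passed the adjusted p in KO (0.67, adjusted p = 0.0294) below the fold limit, and in WT had 0.25 (adjusted p = 0.812), or 0.52, adjusted p = 0.0288 without WT Infl. replicate 2.

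The primase and polymerase genes were mixed. Of 8 genes, 3 were called in KO and 0 in WT (3 without WT Infl. replicate 2), with medians of 0.48 in KO and 0.37 in WT (0.68 without that library). The medians of all genes were 0.24, -0.03 and 0.17. Called in KO were Pole2 (1.18), Prim1 (1.06) and Pola1 (1.02), which encode an accessory subunit of polymerase epsilon, the catalytic primase subunit and the catalytic subunit of polymerase alpha. Pold2, an accessory subunit of polymerase delta and the highest of the class, had 45.6, 38.2, 37.5 and 36.9 TPM in KO Infl. LECs, against 29.2, 37.6, 34.5 and 36.6 TPM in KO LECs (log2 fold change 0.19 ± 0.10, adjusted p = 0.125). Pold2 had 36.9, 51, 36.8 and 60.1 TPM in WT Infl. LECs, against 41.5, 41.6, 39.9 and 35.4 TPM in WT LECs (log2 fold change 0.19 ± 0.20, adjusted p = 0.784, and 0.13, adjusted p = 0.554 without WT Infl. replicate 2). The Pold2 groups overlapped in both genotypes. Pola2, the accessory subunit of polymerase alpha, was not called either: it had 36.2 to 40.5 TPM in KO Infl. LECs, against 35.3 to 38.6 TPM in KO LECs, and 27.6 to 41.1 TPM in WT Infl. LECs, against 37.1 to 45.4 TPM in WT LECs. The 95% intervals of its log2 fold change were -0.10 to 0.23 and -0.63 to 0.20. For Pole, the catalytic subunit of polymerase epsilon, the log2 fold changes were close to 0 (0.16 in KO and 0.12 in WT). Prim2, the large primase subunit, and Pold1, the catalytic subunit of polymerase delta, passed the adjusted p in KO below the fold limit (0.50 and 0.47), beside 0.91 and 0.13 in WT. The WT values without replicate 2 were 1.13, adjusted p = 0.00134 for Prim2 and 0.38, adjusted p = 0.133 for Pold1.

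The clamp and its loader included Rfc2 and Pcna, the members with the highest mean TPM, and few of its genes passed the fold limit. Rfc2, a loader subunit, had 144, 134, 142 and 137 TPM in KO Infl. LECs, against 103, 109, 105 and 92.7 TPM in KO LECs (log2 fold change 0.44 ± 0.07, adjusted p = 0.000225). Rfc2 had 141, 145, 129 and 144 TPM in WT Infl. LECs, against 91.9, 114, 128 and 89.9 TPM in WT LECs (log2 fold change 0.41 ± 0.16, adjusted p = 0.207, and 0.39, adjusted p = 0.0328 without WT Infl. replicate 2). In both genotypes all inflamed libraries exceeded all steady-state libraries, with changes well under the fold limit. Pcna, the clamp itself, averaged 121 ± 12 TPM in KO Infl. LECs and 79.5 ± 8.82 TPM in KO LECs (SD, n = 4 each), and 118 ± 23.6 TPM in WT Infl. LECs and 82.6 ± 12.3 TPM in WT LECs. The loader subunits Rfc4 and Rfc5 were called in KO (1.13 and 1.02), and Rfc3 (0.53) and Pcna (0.60) passed the adjusted p only.

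Of the proteins that coat single-stranded DNA and join lagging-strand fragments, the trimming and joining enzymes were called in KO and the coating proteins were not. Fen1, the nuclease that trims flaps between fragments, had 66.4, 57.3, 64.1 and 64.1 TPM in KO Infl. LECs, against 22.2, 29.2, 30.7 and 26 TPM in KO LECs (log2 fold change 1.20 ± 0.10, adjusted p = 8.57e-06). Fen1 had 60.5, 45, 55 and 72.3 TPM in WT Infl. LECs, against 27.7, 23.2, 25.5 and 21.8 TPM in WT LECs (log2 fold change 1.20 ± 0.19, adjusted p = 0.00757, and 1.31, adjusted p = 4.42e-05 without WT Infl. replicate 2). The Fen1 groups did not overlap in either genotype. Lig1, the ligase that seals the fragments, was called in KO (log2 fold change 1.31 ± 0.10, adjusted p = 4.12e-06). In WT it was not called with all libraries (1.09 ± 0.31, adjusted p = 0.0794), but was without WT Infl. replicate 2 (1.34, adjusted p = 0.000656). Rpa1, the large subunit of the single-strand binding protein RPA, had 92.8, 83.1, 76.8 and 87.3 TPM in KO Infl. LECs, against 56.8, 58.4, 60.0 and 55.3 TPM in KO LECs (log2 fold change 0.55 ± 0.07, adjusted p = 0.000117). Rpa1 had 88.3, 27.3, 88.8 and 97.6 TPM in WT Infl. LECs, against 58.1, 73, 67 and 61 TPM in WT LECs (log2 fold change 0.07 ± 0.37, adjusted p = 0.982, and 0.50, adjusted p = 0.00355 without WT Infl. replicate 2). In WT only replicate 2, at 27.3 TPM, lay below the steady-state libraries. Rpa2, the middle subunit, passed the adjusted p in KO (0.39) and had 0.46 in WT (adjusted p = 0.273, and 0.53, adjusted p = 0.0263 without WT Infl. replicate 2).

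Nucleotide supply held Rrm2, the member with the largest log2 fold change of TPM + 1 in both genotypes. As a ratio of mean TPM without the added 1, the change was 6.12 for Rrm2 and 8.66 for Cdc6 in KO, and 8.49 and 5.92 in WT. Rrm2, the small subunit of ribonucleotide reductase that is made in S phase, had 25.8, 19.1, 20.2 and 32.9 TPM in KO Infl. LECs, against 2.77, 4.88, 5.59 and 2.76 TPM in KO LECs (log2 fold change 2.37 ± 0.23, adjusted p = 1.48e-05). Rrm2 had 36.2, 9.06, 29.8 and 34.8 TPM in WT Infl. LECs, against 2.58, 4.17, 3.63 and 2.56 TPM in WT LECs (log2 fold change 2.60 ± 0.41, adjusted p = 0.00795, and 3.04, adjusted p = 2.52e-06 without WT Infl. replicate 2). Even WT Infl. replicate 2, the lowest inflamed library, exceeded every steady-state library. Tk1, the thymidine salvage kinase, had 36.5, 29.9, 33 and 49.8 TPM in KO Infl. LECs, against 7.38, 9.70, 13.6 and 8.23 TPM in KO LECs (log2 fold change 1.84 ± 0.19, adjusted p = 2.59e-05). Tk1 had 49, 61.7, 41.2 and 54.8 TPM in WT Infl. LECs, against 10.1, 13.6, 11.8 and 9.60 TPM in WT LECs (log2 fold change 2.10 ± 0.20, adjusted p = 0.000923, and 2.01, adjusted p = 1.08e-05 without WT Infl. replicate 2). Tk1 was one of the members that WT Infl. replicate 2 did not lower, and its adjusted p was the smallest in WT. Tyms, thymidylate synthase, had 39.7, 37.2, 37.1 and 41.5 TPM in KO Infl. LECs, against 14.8, 16, 15.5 and 14.3 TPM in KO LECs (log2 fold change 1.30 ± 0.08, adjusted p = 1.48e-06). Tyms had 32, 24.2, 28.3 and 30.8 TPM in WT Infl. LECs, against 11.7, 13.1, 12 and 11.4 TPM in WT LECs (log2 fold change 1.19 ± 0.18, adjusted p = 0.00558, and 1.27, adjusted p = 3.39e-05 without WT Infl. replicate 2). The Tyms groups did not overlap in either genotype. Rrm1, the large subunit of ribonucleotide reductase, had 47.6, 42.2, 36.9 and 43.3 TPM in KO Infl. LECs, against 18.5, 19.7, 21.3 and 17.4 TPM in KO LECs (log2 fold change 1.10 ± 0.10, adjusted p = 1.07e-05). Rrm1 had 47.7, 13, 38.2 and 51 TPM in WT Infl. LECs, against 16.6, 20.7, 15.8 and 25.8 TPM in WT LECs (log2 fold change 0.75 ± 0.40, adjusted p = 0.413, and 1.18, adjusted p = 0.000582 without WT Infl. replicate 2). Rrm1 was separate in KO and, in WT, separate in all inflamed libraries but replicate 2. Dut, the dUTPase that keeps uracil out of DNA, passed the adjusted p in KO alone, with 0.44 in KO and 0.40 in WT (adjusted p = 0.352, and 0.32, adjusted p = 0.0999 without WT Infl. replicate 2).

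Some members act on chromatin behind the fork, and each was called in KO. Uhrf1, which brings the maintenance methyltransferase to newly copied DNA, had 33, 25.2, 28.5 and 22.5 TPM in KO Infl. LECs, against 5.01, 6.98, 6.17 and 7.35 TPM in KO LECs (log2 fold change 1.94 ± 0.14, adjusted p = 3.61e-06). Uhrf1 had 22.6, 6.86, 23.4 and 38.5 TPM in WT Infl. LECs, against 3.93, 6.05, 3.51 and 4.48 TPM in WT LECs (log2 fold change 1.92 ± 0.45, adjusted p = 0.0389, and 2.39, adjusted p = 3.32e-05 without WT Infl. replicate 2). Every inflamed library was above the highest steady-state library of its genotype, although WT Infl. replicate 2 was only slightly so. Chaf1a, the large subunit of the histone chaperone CAF-1, had 17.6, 16.8, 12.5 and 18 TPM in KO Infl. LECs, against 5.27, 4.19, 6.28 and 1.18 TPM in KO LECs (log2 fold change 1.84 ± 0.32, adjusted p = 0.000651). Chaf1a had 12.7, 3.43, 10.9 and 19.5 TPM in WT Infl. LECs, against 4.93, 5.11, 6.18 and 3.65 TPM in WT LECs (log2 fold change 0.90 ± 0.43, adjusted p = 0.33, and 1.34, adjusted p = 0.000965 without WT Infl. replicate 2). Its KO libraries were spread by a value of 1.18 TPM in replicate 4, and coding exons of Ubxn6 cover 33.6% of its exon bases. Chaf1b, the middle subunit of CAF-1, had 35.8, 26.9, 28.5 and 37 TPM in KO Infl. LECs, against 13.1, 12.3, 13.9 and 9.72 TPM in KO LECs (log2 fold change 1.32 ± 0.14, adjusted p = 2.69e-05). Chaf1b had 30.6, 18.6, 21.1 and 36.8 TPM in WT Infl. LECs, against 14.4, 11.5, 18.8 and 12.8 TPM in WT LECs (log2 fold change 0.83 ± 0.26, adjusted p = 0.122, and 0.98, adjusted p = 0.00432 without WT Infl. replicate 2). Chaf1b was called in KO and stayed short of the fold limit in WT with and without replicate 2. The regulators of S-phase entry were of low abundance. Ccne1, which encodes cyclin E1, had 7.77, 6.80, 8.67 and 11.7 TPM in KO Infl. LECs, against 3.80, 1.39, 1.72 and 1.32 TPM in KO LECs (log2 fold change 1.72 ± 0.24, adjusted p = 0.000156). Ccne1 had 9.94, 4.01, 8.11 and 7.44 TPM in WT Infl. LECs, against 1.76, 1.42, 0.836 and 0.806 TPM in WT LECs (log2 fold change 1.89 ± 0.28, adjusted p = 0.00558, and 2.12, adjusted p = 3.98e-05 without WT Infl. replicate 2). The ranges of Ccne1 did not overlap in either genotype. As 0.836 and 0.806 TPM were under the minimum, Ccne1 passed it in WT only with the help of WT Infl. libraries. Its WT call is therefore no independent evidence of a rise. E2f1, a transcription factor of the E2F family, had 16.4, 12.2, 12.8 and 12.1 TPM in KO Infl. LECs, against 4.38, 6.42, 7.34 and 6.09 TPM in KO LECs (log2 fold change 1.03 ± 0.16, adjusted p = 0.000247). E2f1 had 10.4, 9.89, 15.7 and 16.7 TPM in WT Infl. LECs, against 3.92, 5.47, 6.07 and 2.62 TPM in WT LECs (log2 fold change 1.37 ± 0.29, adjusted p = 0.0257, and 1.48, adjusted p = 0.00129 without WT Infl. replicate 2). The E2f1 groups were also separate in both genotypes. Ccne2, a further cyclin E gene, had 0.867 to 1.60 TPM in KO Infl. LECs, against 0.134 to 0.227 TPM in KO LECs, and 0.296 to 1.64 TPM in WT Infl. LECs, against 0.234 to 0.379 TPM in WT LECs, below the minimum for a test of either change.

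**Figure D3:**
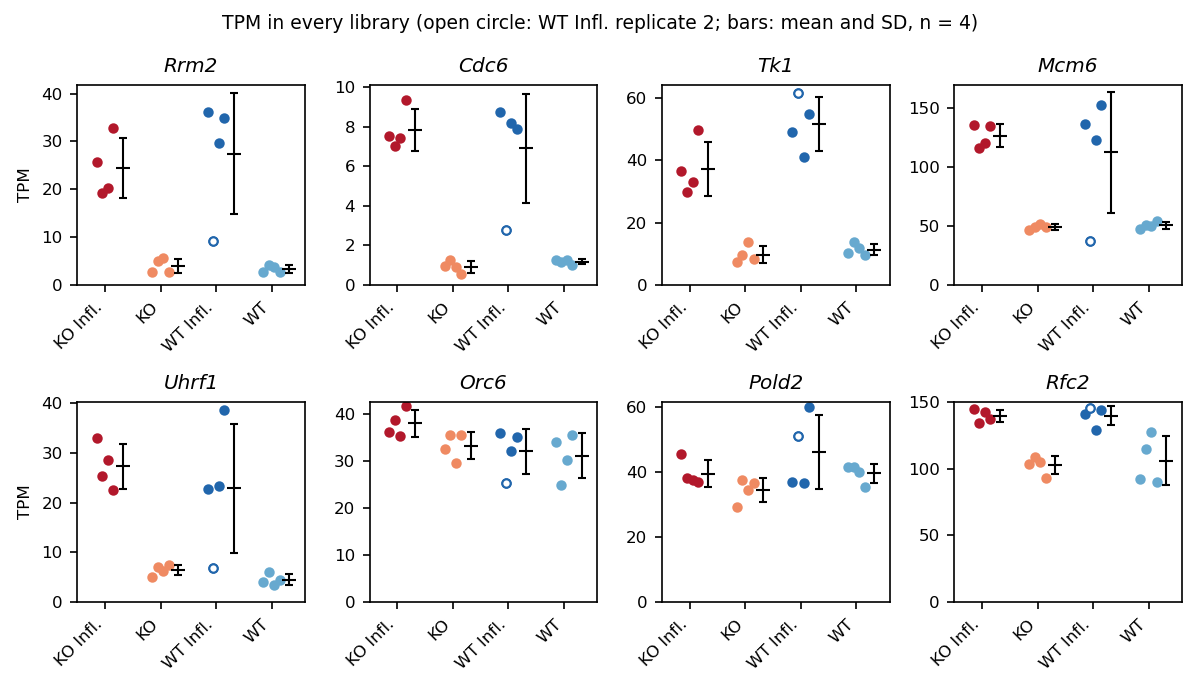
Points are the TPM of 8 members in each library, KO Infl., KO, WT Infl. and WT from left to right, with the mean and SD (n = 4) as bars and WT Infl. replicate 2 as an open circle. Rrm2, Cdc6, Tk1, Mcm6 and Uhrf1 separate in KO, Rfc2 separates by less, and Orc6 and Pold2 overlap in both genotypes.

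**Figure D4:**
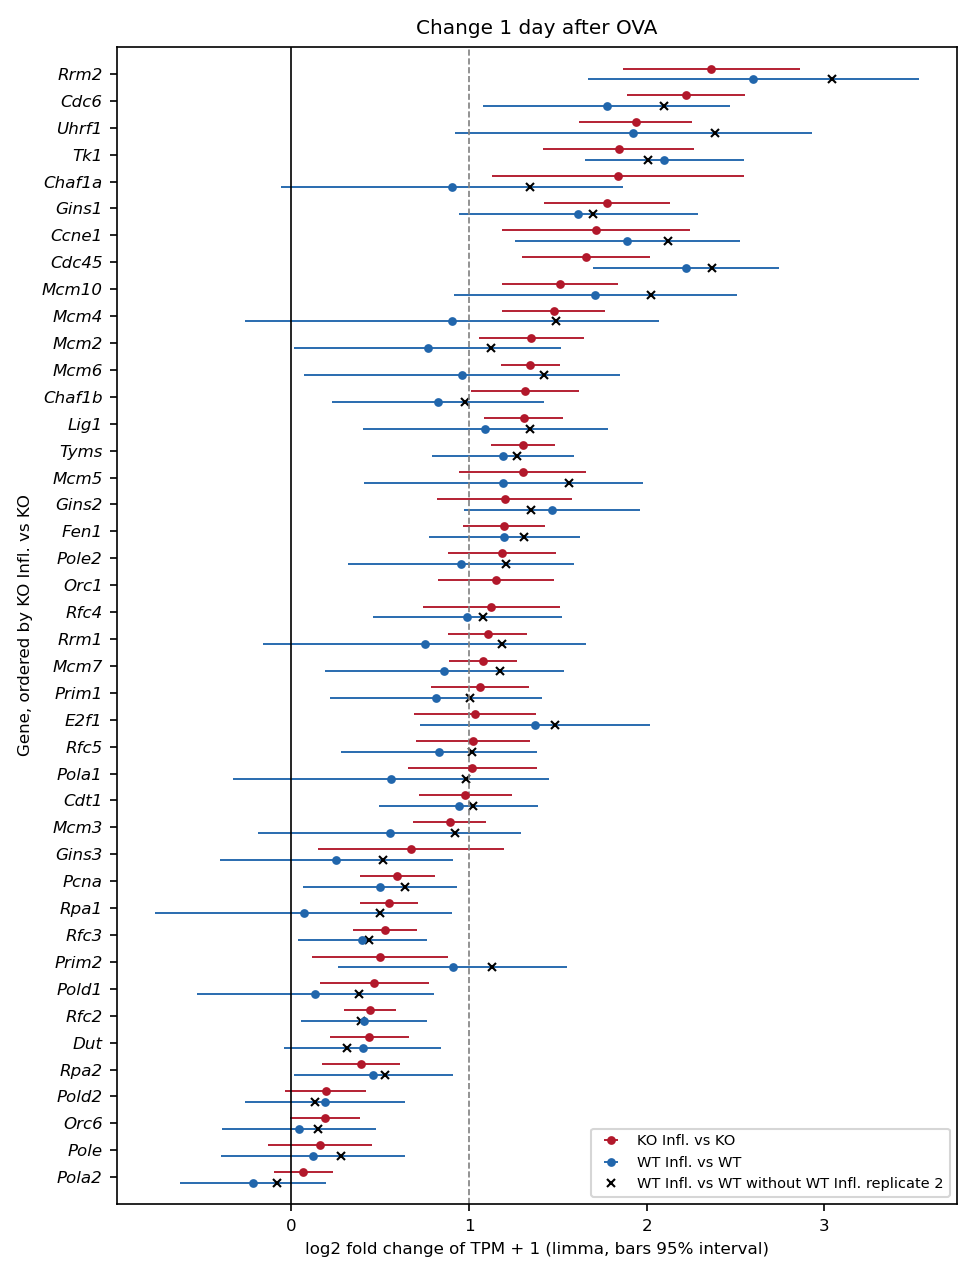
Points are the log2 fold changes of TPM + 1 with 95% intervals for 42 members in KO Infl. against KO LECs and 41 in WT Infl. against WT LECs, ordered by the KO value, and crosses give WT without WT Infl. replicate 2. Rrm2 lies highest and Pola2 lowest in KO, and most WT intervals are wider than those of KO.

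Genes of the same pathways outside the list were also counted. Over all genes, 6.41% were called higher in KO and 1.99% in WT, or 5.84% in WT without WT Infl. replicate 2. Of other replication proteins, 9 of 29 tested were higher in KO Infl. LECs (median 0.73, beside 0.24 over all genes) and 6 of 29 in WT Infl. LECs (median 0.36, beside -0.03, or 0.61 without WT Infl. replicate 2), none lower. Cdc7, the kinase that fires origins, had 2.05 in KO and 1.61 in WT, and Dtl, which marks CDT1 for destruction, 1.90 and 1.67. Of other nucleotide supply genes, 3 of 26 were higher in KO and 1 of 26 in WT: the folate enzyme Mthfd2 in both (1.86 and 1.88), CTP synthase Ctps (1.50) and dCMP deaminase Dctd (1.50) in KO. Of other chromatin genes, 5 of 10 were higher in KO, led by the histone chaperone Asf1b (2.21), and 1 of 10 in WT. Of other G1-to-S regulators, 3 of 25 were higher in KO, namely Mybl2 (1.80), E2f7 (1.75) and E2f8 (1.46), and 0 of 24 in WT. With all libraries, the WT counts of 1 nucleotide supply gene and 0 G1-to-S regulators were close to the share over all genes. Without WT Infl. replicate 2 the WT counts were 8 replication, 4 nucleotide, 3 chromatin and 4 G1-to-S genes. The G1-to-S count then includes Cdk2 (1.02, limma, adjusted p = 0.0422), for which WT Infl. replicate 4 lay far above the other WT libraries, as given below. Mitosis genes were higher for 22 of 25 in KO (median 1.79) and 14 of 22 in WT (median 1.65), or 21 of 22 without WT Infl. replicate 2 (median 2.02). They summed to 394 to 539 TPM in KO Infl. LECs, against 94.4 to 154 TPM in KO LECs, and to 303 to 579.6 TPM in WT Infl. LECs, against 105 to 165 TPM in WT LECs.

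The second question was whether these genes differed between the genotypes. Of 43 members, none was called in KO Infl. against WT Infl. LECs in either direction, beside 0.316% of all 12030 genes; Pole and Tyms (higher) and Tk1 (lower) had an unadjusted p under 0.05 (limma), 6.98% of the members beside 4.26% of all genes. The median log2 fold change was 0.18 for the members and 0.20 for all genes, with 36 members above 0. Without WT Infl. replicate 2 these medians were -0.04 and 0.02, with 16 members above 0 and 27 below. At steady state, none of 41 members was called in KO against WT LECs, beside 0.821% of all 12058 genes, with Cdc45, Pole, Tyms and Uhrf1 (all higher) at an unadjusted p under 0.05, 9.76% of the members beside 11.7% of all genes, and a median of 0.00. The difference between the OVA changes of the genotypes, tested as an interaction over all 16 libraries, was called for no member and for 0.0% of 12684 genes, and no member reached an unadjusted p under 0.05 (4.27% of all genes did). These tests leave wide intervals. The difference was largest in size for Chaf1a, at 0.94 (95% interval -0.30 to 2.17, adjusted p = 0.668), and was -0.56 for Cdc45 (-1.15 to 0.02). This order rested on WT Infl. replicate 2 and on the scaling: without that library the values were 0.50 for Chaf1a, -0.71 for Cdc45 and -0.68 for Rrm2, and with median ratio rescaling 0.71 for Chaf1a and -0.83 for Cdc45. With all libraries the interval of the difference was -1.30 to 0.83 for Rrm2 and -0.44 to 0.44 for Fen1.

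The groups did not overlap between genotypes for 2 of 43 members in inflamed nodes (5.19% of all genes) and 3 of 41 at steady state (6.54% of all genes), which is close to the share of all genes. Cdc45 was the gene separate at steady state alone. Pole and Tyms were separate in both states in the same direction, as were 1.1% of 11622 genes, and are named because of that pattern. Pole (chr5:110286319-110337468) had 15.8, 13.4, 13.9 and 17.7 TPM in KO Infl. LECs, against 11.3, 6.35, 11.1 and 8.92 TPM in WT Infl. LECs (log2 fold change 0.66 ± 0.22, adjusted p = 0.717). At steady state it had 13.8, 10.7, 15.5 and 14 TPM in KO LECs, against 9.83, 7.87, 8.13 and 7.77 TPM in WT LECs (log2 fold change 0.62 ± 0.14, adjusted p = 0.0557). Tyms (chr5:30038546-30073645) differed by 0.42 (adjusted p = 0.717) in inflamed nodes and by 0.31 (adjusted p = 0.263) at steady state. With WT Infl. replicate 2 left out, the inflamed difference was 0.50, adjusted p = 0.168 for Pole and 0.35, adjusted p = 0.135 for Tyms. Neither gene was called in either state, and with median ratio rescaling Pole passed the adjusted p at steady state (0.66, adjusted p = 0.0316) but not the fold limit. Outside the list, Supt16, a subunit of the histone chaperone FACT (chr14:52160419-52197239), was higher with 72.3 to 87.1 TPM in KO Infl. LECs, against 5.36 to 15.8 TPM in WT Infl. LECs (log2 fold change 2.74 ± 0.30, adjusted p = 0.00562), and with 31.6 to 41.5 TPM in KO LECs, against 12.9 to 17.1 TPM in WT LECs (log2 fold change 1.32 ± 0.12, adjusted p = 0.000123). Cdk2, which encodes a kinase of S-phase entry, had 51.6, 53.7, 42.7 and 56.5 TPM in KO Infl. LECs, against 8.07, 5.14, 8.63 and 28.2 TPM in WT Infl. LECs (log2 fold change 2.21 ± 0.43, adjusted p = 0.121), and 22.4 to 34.8 TPM in KO LECs, against 4.68 to 6.44 TPM in WT LECs (log2 fold change 2.05 ± 0.16, adjusted p = 1.99e-05). Without WT Infl. replicate 2 the inflamed differences were 2.43, adjusted p = 4.75e-06 for Supt16 and 1.92, adjusted p = 0.0413 for Cdk2, so that Cdk2 was then called. The difference between the OVA changes of the genotypes was then also called for Supt16, at 1.11 (interaction, limma, adjusted p = 0.0257). For Cdk2 that difference was -0.13 (adjusted p = 0.973). WT Infl. replicate 4 was the only WT library with Cdk2 in the KO range. Supt16 lies on the same chromosome as Stab1, and the methods describe a mixed strain background. For all genes named here, loss of Clever-1 and differences of background between the mice cannot be told apart.

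The members also varied together among libraries of 1 group: the median Pearson correlation of their deviations from the group means was 0.47 over 903 gene pairs and 16 libraries, and 0.18 without WT Infl. replicate 2, so that much of it came with that library. Of 9007 genes outside all lists with a mean of at least 5 TPM, the 5 whose log2(TPM + 1) followed the members' mean most closely over the 16 libraries were Pdia6, Tacc3, Fam111a, Shcbp1 and Ncaph, with correlations of 0.980 to 0.984, or 0.981 to 0.986 without WT Infl. replicate 2. Within the 8 steady-state libraries alone the correlations were 0.202 to 0.667. Tacc3, a spindle protein, had 30.5, 28.5, 27.2 and 29.2 TPM in KO Infl. LECs, against 7.41, 6.16, 9.44 and 8.83 TPM in KO LECs, and 34, 11.8, 32.6 and 29.2 TPM in WT Infl. LECs, against 6.46, 8.93, 8.83 and 6.55 TPM in WT LECs. The E2F-type motifs described above were in the windows of 9 of 24 members called higher in KO (37.5%) and of 5 of 12 members not called there (41.7%).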

How the data were processed

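The deposited TPM values, in 3 tables that repeat 8 library columns with identical values, were made by the authors from single-end reads of 50 bases (SMART-Seq v4 and Nextera XT libraries, which do not mark strand). Their notes name STAR 2.5.2b, Subread and limma with mm10, whereas the methods name STAR and salmon with RefSeq annotation. Each library sums to the same total, so depth is unknown, and a rise in some genes lowers the share of others. Genes at 1 TPM or more in 4 libraries of a comparison were fitted on log2(TPM + 1) with limma 3.58.1 (trend, R 4.3.3), which understates changes of genes near 1 TPM. P-values were Benjamini-Hochberg adjusted over all tested genes, and a call needed an adjusted p of 0.05 or less and a log2 fold change of 1 or more in size. The interaction was fitted over all 16 libraries. The fit was tested on simulated data. Separate tables of the authors' own comparisons, with their fold changes and q-values for selected genes, were not used, and 26 lines of each TPM table whose gene names had become dates were left out. Replicate numbers were not used to pair the libraries. The members and the gene lists were chosen with earlier results of these data known. Values per library are given for the 12 called members of each comparison with the largest changes and for the member of each role with the highest mean TPM; Pole was added after its values were seen. Alternatives were other pseudocounts, filters, scalings, weights, a replicate block and leaving out each library. Median ratio rescaling without WT Infl. replicate 2 was added after seeing the data. The 24946 gene names and 36 promoter windows were matched by symbol.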

Additional observations from a re-analysis of the deposited data

Results flagged for a closer look

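In 7 of 96 groups of 4 libraries looked at (7.29%, where chance gives about 1 in 20), the lowest or highest library lay far from the others by Dixon's ratio. WT Infl. replicate 2 was low for Cdc6, at 2.78 TPM with the next library at 7.90 TPM, and for Rpa1, at 27.3 TPM with the next at 88.3 TPM. KO Infl. replicate 1 was high for Pold2 (45.6 TPM, next 38.2 TPM) and for E2f1 (16.4 TPM, next 12.8 TPM). KO Infl. replicate 2 was low for Mcm10 (5.39 TPM, next 7.78 TPM), KO replicate 1 was high for Ccne1 (3.80 TPM, next 1.72 TPM), and WT replicate 4 was low for Cdc45 (2.94 TPM, next 4.35 TPM).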

How the results depend on the processing

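The count of members higher in KO Infl. than in KO LECs was 27 and became 16 with a pseudocount of 5 TPM, 17 with median ratio rescaling and 17 with quantile normalization, and it ran from 23 to 27 when each library was left out in turn. The count of members higher in WT Infl. than in WT LECs was 12 and became 7 with a pseudocount of 5 TPM, 25 with array weights and 7 with the replicate block, and it ran from 7 to 26 over the libraries left out, the highest without WT Infl. replicate 2. It was 18 with median ratio rescaling and that library left out. The cause of these shifts was not tested. The share of all genes called higher was 3.31% with median ratio rescaling in KO and 5.84% without WT Infl. replicate 2 in WT. For the other alternatives that share is not given, so these member counts cannot be set against all genes. The other counts, members lower after OVA and members called in the genotype comparisons or the interaction, were 0 under every alternative run. Of the calls of single members, 414 of 454 in KO and 174 of 213 in WT were kept over the alternatives and none changed direction. Called under every alternative were 14 members in KO, among them Cdc45, Mcm6 and Rrm2, and 5 in WT, Cdc45, Fen1, Gins2, Rrm2 and Tk1. The 14 include Cdc6, which passed the minimum in KO only through the KO Infl. libraries. Same-numbered libraries did not deviate together, with correlations of -0.21 to 0.12 and 1 of 16 over 0.1. The replicate block rests on the replicate number. Running numbers in the sample descriptions follow it across the groups, and what they stand for is not stated. Libraries of unknown depth and groups of 4 limit the differences that can be seen between genotypes.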
